A study of Homo sapiens with 12 samples.

Results

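The comparison described here sets cells differentiated from wild-type (WT) neural progenitor cells (NPCs) for 28 days against the NPCs themselves, gene by gene. Its members are the genes with a mean raw count of at least 20 over all 12 samples of the study, which left 13454 of the 58302 genes in the count tables. Samples are named by their labels: 2 samples of WT NPCs (H1-NPC) and 2 samples at day 28 (WT-D28, labelled H1-D28), out of 12. All came from H1, an established line of human embryonic stem cells, so the replicates are samples of the same line and the labels do not say whether they were separate cultures. The NPCs were made with inhibitors of SMAD signalling (SB431542 and dorsomorphin), picked as rosettes and grown as floating spheres in N2B27 medium with bFGF and EGF, and their labels give no passage. For WT-D28, dissociated NPCs were plated on Matrigel and kept for 28 days in N2B27 with GDNF, BDNF and cAMP and without the growth factors. Culture format, medium and time therefore changed together and cannot be told apart. The same 2 stages of H1 cells with both H3K27 demethylases, KDM6A (UTX) and KDM6B (JMJD3), inactivated (dKO) served for comparison.

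Neural progenitors divide in response to FGF and EGF and carry SOX2, PAX6, nestin and vimentin. When growth factors are withdrawn they leave the cell cycle, proneural transcription factors switch on neuronal genes, and the young neurons build axons, synapses and ion channels. Neurons of the dorsal forebrain mostly release glutamate and arise through PAX6, EOMES, TBR1 and the NEUROD factors, whereas those of the ventral forebrain mostly release GABA and arise through NKX2-1, LHX6 and the DLX factors. Astrocytes follow later from the same progenitors.

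Values per sample are CPM, raw counts scaled to the size of the library with TMM factors. The WT NPC libraries were shallow, with 756942 and 1328252 counts, against 8813561 and 10601172 counts for WT-D28, so 3 counts corresponded to 3.86 and 2.20 CPM in the NPCs and to 0.355 and 0.297 CPM at day 28. These floors cover counting error only. Replicates correlated across genes on the log2 CPM scale with Pearson's r of 0.955 for NPCs and 0.9946 for WT-D28 (genes are not independent replicates). The shallow NPC libraries of both genotypes also stood apart in other ways. Mitochondrially encoded genes took 1.77% to 1.79% of counts in WT NPCs and 1.66% to 1.73% in dKO NPCs, against 3.70% to 5.18% in the 8 later samples. The ribosomal protein gene RPL21, which has many near-identical copies in the genome, had 2.94 to 14.8 CPM in those 4 NPC libraries and 127 to 210 CPM in the 8 others. No batch is given in the labels, so batch and day cannot be told apart.

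Markers of other cell types were checked in the 4 samples. POU5F1 and NANOG, the defining genes of pluripotent cells, were listed at 0 in all 12 samples of the study, while the 10 pluripotency markers summed to 323 and 301 CPM in the NPCs and 20.9 and 19.2 CPM at day 28. Their level in the NPCs came from LIN28A, SALL4, DNMT3B and L1TD1 and from DPPA4, which had 42.4 and 30.1 CPM in the NPCs and 0.118 and 0 CPM at day 28. The part of pluripotent cells in the falls of these genes was not tested. Nor was it tested whether reads of POU5F1 and NANOG could be counted, as GABBR1 also had 0 counts over all 12 samples. Microglial markers summed to 2.08 to 4.41 CPM and muscle markers to 3.90 to 13.9 CPM. The 11 markers of fibroblasts and pericytes summed to 171 and 463 CPM in NPC samples 1 and 2 and to 229 and 241 CPM at day 28, with DCN at or below 2 counts in each sample. The 10 markers of epithelium and choroid plexus summed to 77.2 and 173 CPM in the NPCs and 25.5 CPM in both WT-D28 samples, with the choroid plexus marker TTR at 0 or 1 count. NPC sample 2 thus held more mesenchymal and epithelial transcripts than NPC sample 1, and the part of this in the results was not tested. Some genes that neurons use could not be read from these tables: MAPT (tau) had 3 counts and GABBR1 had 0 counts over all 12 samples.

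Differential expression was tested with the quasi-likelihood test of edgeR, and a call required more than a 2-fold change with p (not adjusted) under 0.05. By that rule 1737 genes (12.9% of those tested) were higher and 1544 (11.5%) were lower in WT-D28, 3281 (24.4%) in all. With Benjamini-Hochberg adjustment below 0.05 as well, 1652 and 1516 remained. The median log2 fold change over all genes was 0.04, and 211 rises and 211 falls exceeded 3 on the log2 scale. The genes called higher held 7.47% of all CPM in the NPCs and 22% at day 28, and the genes called lower went from 11.6% to 3.22%. Of the genes not called, 6342 had a 95% interval of the log2 fold change that lay wholly within -1 and 1. A comparison of 2 samples against 2 cannot reach a two-sided p below 0.333 in an exact permutation test, so the calls depend on dispersion estimates pooled by edgeR over genes and over the 6 groups. The filter on raw counts passes genes high only in the deep WT-D28 libraries more easily than genes high only in the shallow NPC libraries. DPPA4, at 42.4 and 30.1 CPM in the NPCs, was not tested. With a filter of at least 5 CPM on the mean, 1633 genes were higher and 1649 lower. With at least 10 counts in every sample, 833 were higher and 1076 lower. The list counts below use the raw-count filter.

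**Figure D1:**
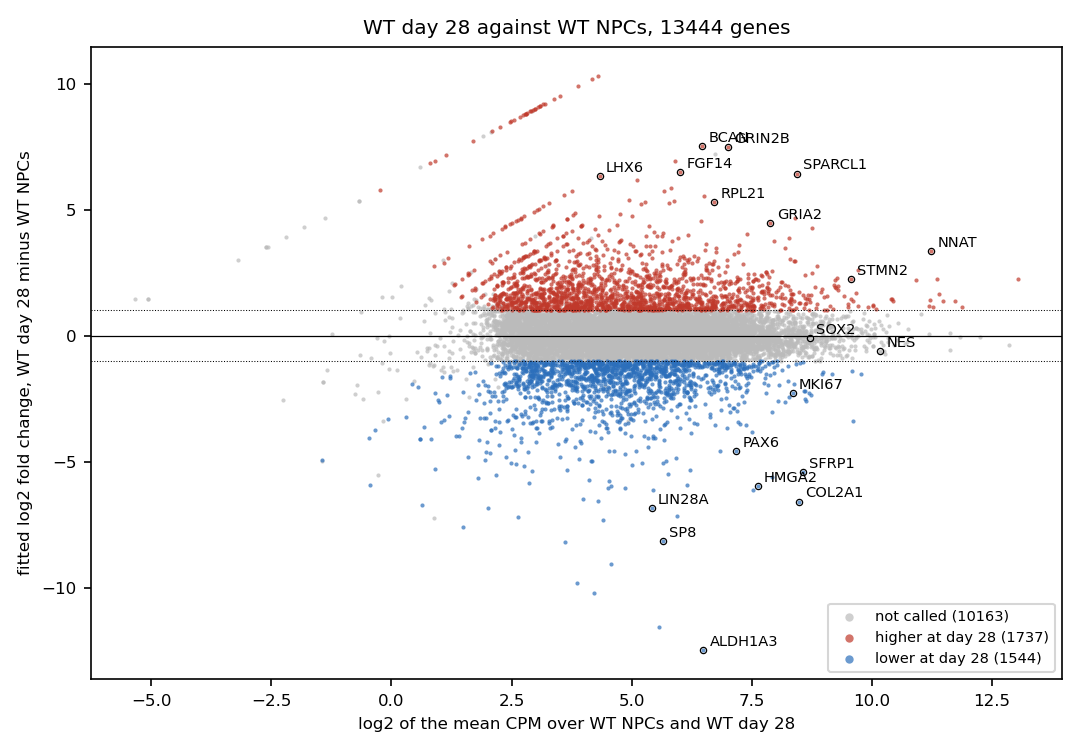
Fitted log2 fold change (vertical axis, WT-D28 minus WT NPCs) against the log2 of the mean CPM over both groups for 13444 genes (10 with 0 counts in all 4 samples are left out); red points were called higher, blue points lower, grey points neither, and circles mark named genes. SOX2 and NES lie near 0 at high levels, SPARCL1, GRIN2B and NNAT lie far above, and COL2A1, HMGA2 and ALDH1A3 far below; the diagonal rows at the upper left are genes with 0 to a few counts in the NPCs, whose fitted fold depends on the prior count.

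Cell division genes had the lowest list medians. Of 68 tested mitosis genes, 63 were lower and 1 was higher in WT-D28, with a median log2 fold change of -2.07. Of 61 genes for S phase and DNA replication, 52 were lower and none was higher (0 in edgeR and DESeq2, and 0 rose at an unadjusted p below 0.05), with a median of -1.79. MKI67, the marker of cycling cells, had 540.2 and 548 CPM in WT NPCs and 108 and 115 CPM in WT-D28 (log2 fold change -2.29, SE 0.14, adjusted p = 6.01e-09). TOP2A, the topoisomerase that untangles chromosomes in mitosis, went from 675 and 613 to 138 and 139.5 CPM (-2.21 on the log2 scale, SE 0.11). Both genes left a clear residue at day 28, far above the floor of 3 counts. The kinetochore motor CENPE, with KIF18A at the bottom of the list, went from 179 and 178 to 19.5 and 21.9 CPM (log2 fold change -3.10). The anaphase activator CDC20 went from 111 and 112 to 17.3 and 17.1 CPM (log2 fold change -2.70). CDK1 itself changed less, from 56.6 and 58.01 to 23.8 and 27.8 CPM (log2 fold change -1.15). The exception in the list was BUB3, a checkpoint protein, with 121 and 110.1 CPM in WT NPCs and 462 and 473 CPM in WT-D28 (log2 fold change 2.03, SE 0.11, adjusted p = 2.13e-09).

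Replication genes moved alike. The replicative helicase subunits MCM2 to MCM7 were all lower, from MCM2 with 282 and 272 CPM in WT NPCs and 62.2 and 61.1 CPM in WT-D28 (log2 fold change -2.16) to MCM7 with 397 and 413 CPM in WT NPCs and 154 and 159.9 CPM in WT-D28 (log2 fold change -1.37). PCNA, the sliding clamp, went from 239 and 222 to 77.5 and 83.5 CPM (log2 fold change -1.51, and -0.90 and not called with a correction for GC content and length), and ORC1, a subunit of the origin recognition complex, went from 54.02 and 44.8 to 6.03 and 7.24 CPM (log2 fold change -2.86). Among 25 G1 cyclins, CDKs and CDK inhibitors, 8 were lower (5 without NPC sample 2) and 1 was higher. CCND2, the cyclin D of radial glia, went from 176 and 149 to 63.97 and 56.99 CPM (log2 fold change -1.41), and the single rise was the CDK4/6 inhibitor CDKN2D, from 20.6 and 13.2 to 67.3 and 60.8 CPM (log2 fold change 1.99).

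The promoters of these genes share short sequence elements. Windows of 300 bases (250 before to 50 after the start, RefSeq, GRCh38.p14) were found for 58 of the 68 mitosis genes and searched on both strands. The cell cycle genes homology region (CHR, TTTGAA) was present in 65.5% of them, against 9.56% of the 10106 tested genes with a window. The CCAAT box (CCAAT) was present in 70.7% against 36.7%, and both together in 48.3% against 3.98%. The AT form of the CHR (TTTAAA) was present in 29.3% against 7.57%. An E2F element (TTTCGCGC, TTTGGCGC or TTTCCCGC) was present in 49% of 49 replication gene windows, against 4.44%. The 150 bases before the start of 3 abundant mitosis genes that were lower and hold both elements are shown with the CHR and CCAAT box in capitals, since these elements recur across the genes that fell together; on the opposite strand they read TTCAAA and ATTGG, and in MKI67 a CHR overlaps a CCAAT box.
MKI67: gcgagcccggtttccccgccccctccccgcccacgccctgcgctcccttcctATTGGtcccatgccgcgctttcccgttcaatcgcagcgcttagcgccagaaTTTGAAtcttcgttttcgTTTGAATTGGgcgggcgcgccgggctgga
ASPM: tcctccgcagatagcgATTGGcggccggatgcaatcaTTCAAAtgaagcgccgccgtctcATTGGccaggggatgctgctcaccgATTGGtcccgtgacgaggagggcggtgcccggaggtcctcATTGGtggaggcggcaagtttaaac
PRC1: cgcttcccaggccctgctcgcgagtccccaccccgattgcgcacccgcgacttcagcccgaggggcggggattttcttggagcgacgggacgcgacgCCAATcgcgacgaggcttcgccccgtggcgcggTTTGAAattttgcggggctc
For replication genes the E2F element is in capitals, on the opposite strand in PCNA.
MCM7: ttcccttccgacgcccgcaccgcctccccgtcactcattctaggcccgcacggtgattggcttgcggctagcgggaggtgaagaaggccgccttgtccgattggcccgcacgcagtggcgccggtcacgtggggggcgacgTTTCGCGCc
PCNA: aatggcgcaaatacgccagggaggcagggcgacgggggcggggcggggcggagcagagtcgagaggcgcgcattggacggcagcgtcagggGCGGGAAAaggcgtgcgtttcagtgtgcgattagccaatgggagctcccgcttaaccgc
The windows lie at chr10:128126424-128126573, chr1:197146670-197146819, chr15:90994536-90994685, chr7:100101398-100101547 and chr20:5126623-5126772, all on the minus strand. A match describes the letters in the window and does not show that a factor binds there.

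Most progenitor genes were lower at day 28. Of 39 tested genes of progenitors and radial glia, 20 were called lower and 3 higher, and 30 were lower and 3 higher at an unadjusted p below 0.05 whatever the fold, with a median log2 fold change of -1.01. PAX6, a transcription factor of dorsal and eye-field progenitors, had 299.7 and 258 CPM in WT NPCs and 11.7 and 11.50 CPM in WT-D28 (log2 fold change -4.57, SE 0.29, adjusted p = 1.08e-06). PROM1 (CD133, a surface protein of neural stem cells) went from 102 and 93.99 to 2.84 and 2.97 CPM (log2 fold change -5.05), and EMX2, a dorsal forebrain factor, went from 52.7 and 42.6 to 4.49 and 4.36 CPM (log2 fold change -3.39). By contrast the pan-neural stem cell factor SOX2 had 458 and 416 CPM in WT NPCs and 406 and 403 CPM in WT-D28. The intermediate filament nestin (NES) had 1379 and 1410 CPM in WT NPCs and 908 and 928 CPM in WT-D28. Their log2 fold changes of -0.11 (SE 0.11) and -0.60 (SE 0.09) did not pass the fold threshold. VIM (vimentin) with -0.57, SOX1 with -0.31 and the Notch target HES1 with -0.90 on the log2 scale were not called either.

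FABP7 (brain lipid-binding protein of radial glia) was higher, with 127 and 109 CPM in WT NPCs and 407 and 421 CPM in WT-D28 (log2 fold change 1.82, adjusted p = 0.0454), a call that was lost without NPC sample 1 (adjusted p = 0.123), NPC sample 2 (0.194) or WT-D28 sample 2 (0.117). TNC (tenascin C, a matrix protein of outer radial glia) was also higher, but the NPC samples differed, with 48.9 and 178 CPM in WT NPCs and 408 and 398 CPM in WT-D28 (log2 fold change 1.73, adjusted p = 0.0124).

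LIN28A, which blocks maturation of let-7 microRNAs, had 86.2 and 82.98 CPM in WT NPCs and 0.828 and 0.595 CPM in WT-D28 (log2 fold change -6.85, SE 0.54). Its paralogue LIN28B went from 138 and 130 to 14.1 and 12.8 CPM (log2 fold change -3.31). HMGA2, a chromatin protein and let-7 target of young neural stem cells, went from 388 and 387 to 6.39 and 6.05 CPM (log2 fold change -5.96). The mRNA-binding proteins IGF2BP1, IGF2BP2 and IGF2BP3 had log2 fold changes of -2.65, -1.68 and -2.74. In the whole list of 38 RNA-binding regulators, 7 were lower and 10 were higher. The 10 were neuronal splicing and RNA-binding factors of the CELF, ELAVL, NOVA, SRRM and CPEB families, such as CELF4, from 23.2 and 29.4 to 268 and 272 CPM (log2 fold change 3.32), NOVA1, from 75.9 and 70.5 to 277 and 278 CPM (log2 fold change 1.93), and SRRM4, from 47.6 and 29.4 to 118 and 112 CPM (log2 fold change 1.65). REST, the repressor of neuronal genes outside neurons, had 82.3 and 96.2 CPM in WT NPCs and 17.5 and 17.5 CPM in WT-D28 (log2 fold change -2.36, SE 0.20, adjusted p = 1.74e-07). No other gene was called among 17 genes for REST and its corepressors in the fit of all samples, while 1 was called higher without NPC sample 1, NPC sample 2 or WT-D28 sample 2.

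Genes of the axon and neuronal cytoskeleton mostly rose: 31 of 44 were higher and none was lower in edgeR (0 also at an unadjusted p below 0.05, and 1 by DESeq2), with a median log2 fold change of 1.40. Of the 44, 41 had a positive and 3 a negative log2 fold change. The neuronal intermediate filament NEFL went from 117 and 124 to 62.9 and 59.7 CPM. NEFM went from 149 and 134 to 63.0 and 63.6 CPM. Their log2 fold changes of -0.98 (SE 0.59) and -1.15 (SE 0.59) were not called. STMN2 (stathmin 2, an axonal growth protein) had 291 and 244 CPM in WT NPCs and 1232 and 1268 CPM in WT-D28 (log2 fold change 2.24, SE 0.28). DPYSL3, which organises growth cones, went from 716 and 684 to 3194 and 3195 CPM (log2 fold change 2.19), GAP43 went from 84.9 and 67.6 to 575 and 602 CPM (log2 fold change 2.97), and the neuronal intermediate filament INA went from 142 and 123 to 724 and 738 CPM (log2 fold change 2.48). MAP2, the dendritic microtubule protein, went from 410.3 and 399 to 1124 and 1095 CPM (log2 fold change 1.46). DCX (doublecortin) of migrating neurons was already high in the NPCs, with 378 and 306 CPM in WT NPCs and 691 and 675 CPM in WT-D28 (log2 fold change 1.01), and it fell below the fold threshold with DESeq2 (0.99), without NPC sample 2 (0.85) and without WT-D28 sample 1 (0.99). TUBB3, the tubulin often used as a neuronal marker, had 55.3 and 41.9 CPM in WT NPCs and 50.3 and 54.2 CPM in WT-D28 and was not called (log2 fold change 0.14, SE 0.35).

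**Figure D2:**
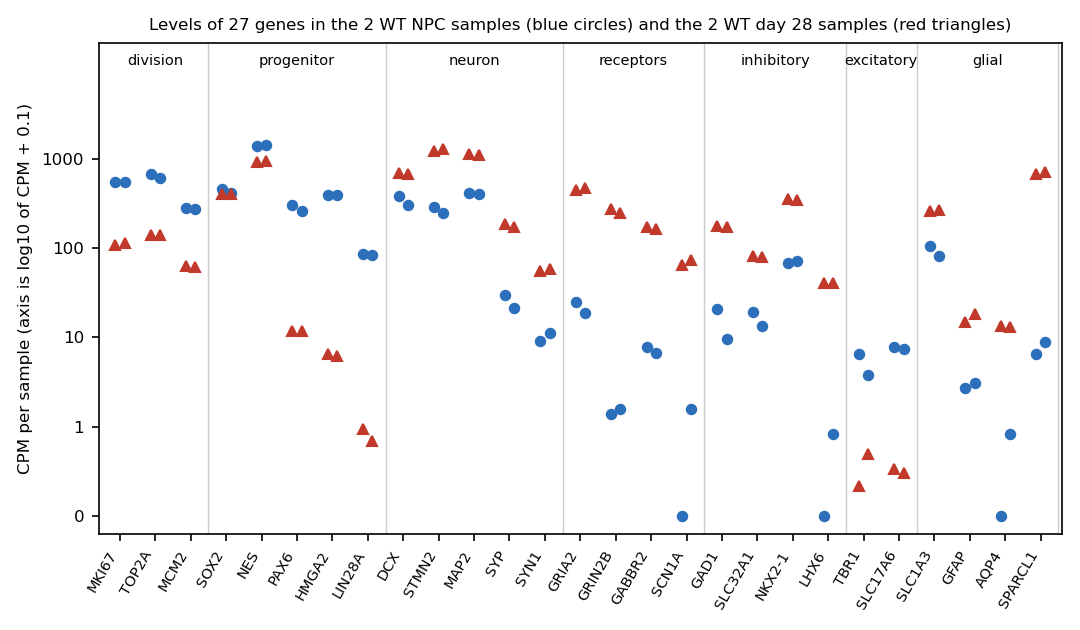
CPM in each sample on a log10 axis of CPM + 0.1 for 27 genes grouped by role; blue circles are the 2 WT NPC samples and red triangles the 2 WT-D28 samples. The triangles lie below the circles for MKI67, TOP2A, PAX6, HMGA2 and LIN28A, overlap or nearly overlap them for SOX2, and lie above them for the neuronal, receptor, inhibitory and glial genes, while TBR1 and SLC17A6 fall.

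Synaptic genes followed. Of 48 genes for synaptic vesicles and release, 30 were higher and 2 were lower (median log2 fold change 1.26). Against the same NPCs, WT NPCs of passage 4 had 25 of these 48 higher and 4 lower (median 1.03). The vesicle proteins SYP (synaptophysin) and SYN1 (synapsin 1) went from 29.6 and 21.3 to 183 and 172 CPM and from 9.003 and 11.01 to 54.6 and 57.5 CPM (log2 fold changes 2.85 and 2.45), and the vesicle GTPase RAB3A went from 14.2 and 13.2 to 116 and 127 CPM (3.16). The calcium sensor SYT1 had 118 and 120.4 CPM in WT NPCs and 241 and 240.3 CPM in WT-D28, a log2 fold change of 1.01 at the edge of the threshold (1.00 and not called by DESeq2, with the 4 samples alone and without NPC sample 1). The vesicular glutamate transporter SLC17A6 fell, with 7.72 and 7.34 CPM in WT NPCs and 0.237 and 0.198 CPM in WT-D28 (log2 fold change -4.93, adjusted p = 0.0016). The vesicular GABA transporter SLC32A1 rose, with 19.3 and 13.2 CPM in WT NPCs and 81.00 and 79.3 CPM in WT-D28 (log2 fold change 2.36, adjusted p = 7.73e-06). On the postsynaptic and adhesion side, 22 of 47 genes were higher and 5 were lower (median 0.62). The neurexins NRXN2 and NRXN3 rose with log2 fold changes of 2.44 and 2.83, and the kinase subunits CAMK2A and CAMK2B with 3.38 and 3.94. HOMER1 and HOMER2, scaffolds that bind metabotropic glutamate receptors, were lower at -1.16 and -1.97. HOMER1 lost its call with a correction for GC content and length (-0.90). CNTNAP2 was called lower (log2 fold change -3.05), although its NPC samples differed strongly, with 5.15 and 77.8 CPM in WT NPCs and 4.73 and 6.34 CPM in WT-D28, so that the groups overlap. Without NPC sample 2 its log2 fold change was 0.11 (adjusted p = 0.917).

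Of 23 glutamate receptor genes, 16 were higher and 1 was lower (median log2 fold change 1.31). GRIN2B, the NMDA receptor subunit of immature neurons (ENSG00000273079, hg38 chromosome 12, 13437942.0 to 13982002.0), had 1 and 2 counts in the NPCs and 2280 and 2469 counts at day 28, or 1.29 and 1.47 CPM in WT NPCs and 269.6 and 245 CPM in WT-D28, a ratio of 183 with a counting interval from 62.5 to 886. GRIN2A, the subunit of more mature synapses, fell, from 9.003 and 8.81 to 1.54 and 1.49 CPM (log2 fold change -2.53). The obligatory NMDA subunit GRIN1 went from 2.57 and 3.67 to 15.3 and 17.2 CPM (log2 fold change 2.30). Among AMPA receptors, GRIA2, the subunit that limits calcium entry, had 24.4 and 18.4 CPM in WT NPCs and 439.6 and 467 CPM in WT-D28 (log2 fold change 4.45, SE 0.61, adjusted p = 0.000971), and GRIA1 had 59.2 and 71.96 CPM in WT NPCs and 320.1 and 314 CPM in WT-D28 (log2 fold change 2.25). GRIA3 was called higher at 1.19, but not without NPC sample 1 (0.68), and GRIA4 was not called at -0.31 on the log2 scale. The kainate receptor GRIK3 went from 39.9 and 30.8 to 469.7 and 466 CPM (log2 fold change 3.76). Of 11 GABA and glycine receptor genes, 7 were higher and 1 was lower (median 1.89), among them the metabotropic subunit GABBR2, from 7.72 and 6.61 to 169.7 and 165 CPM (log2 fold change 4.57), and GABRA5, from 1.29 and 2.94 to 35.5 and 38.8 CPM (log2 fold change 3.98). The lower gene was GABRB2, a beta subunit of the ionotropic receptor, with a log2 fold change of -1.36, and it lost its call without NPC sample 2 (-0.97).

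Of 48 voltage-gated channel genes, 28 were higher and 5 were lower (median 1.52). Among neuronal sodium channels, SCN1A had 0 and 2 counts in the NPCs and 547 and 732 at day 28, a ratio of 73.8 (counting interval 20.4 to 610), SCN2A went from 5.15 and 5.88 to 87.3 and 85.6 CPM (log2 fold change 3.94), and SCN3A, the channel of embryonic brain, went from 33.4 and 22.8 to 159 and 166 CPM (log2 fold change 2.59), while SCN8A was not called at 0.52. The accessory subunit SCN4B had 0 counts in both NPC samples and 211 and 205 at day 28, at least 16.0-fold higher when 3 counts over the group are taken as the floor. KCNA2 and KCNQ3, potassium channels, were lower at log2 fold changes of -3.41 and -1.92. Among 16 neuropeptide and granin genes, 10 were higher and 3 were lower (median 1.69). SCG2 (secretogranin II) went from 41.2 and 38.9 to 578 and 579 CPM (log2 fold change 3.86), and the inhibitory neuropeptide SST (somatostatin) went from 9.003 and 2.94 to 32.04 and 33.1 CPM (log2 fold change 2.63). TRH, the thyrotropin-releasing hormone precursor, was lower, from 57.9 and 40.4 to 5.68 and 3.77 CPM (log2 fold change -3.34).

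**Figure D3:**
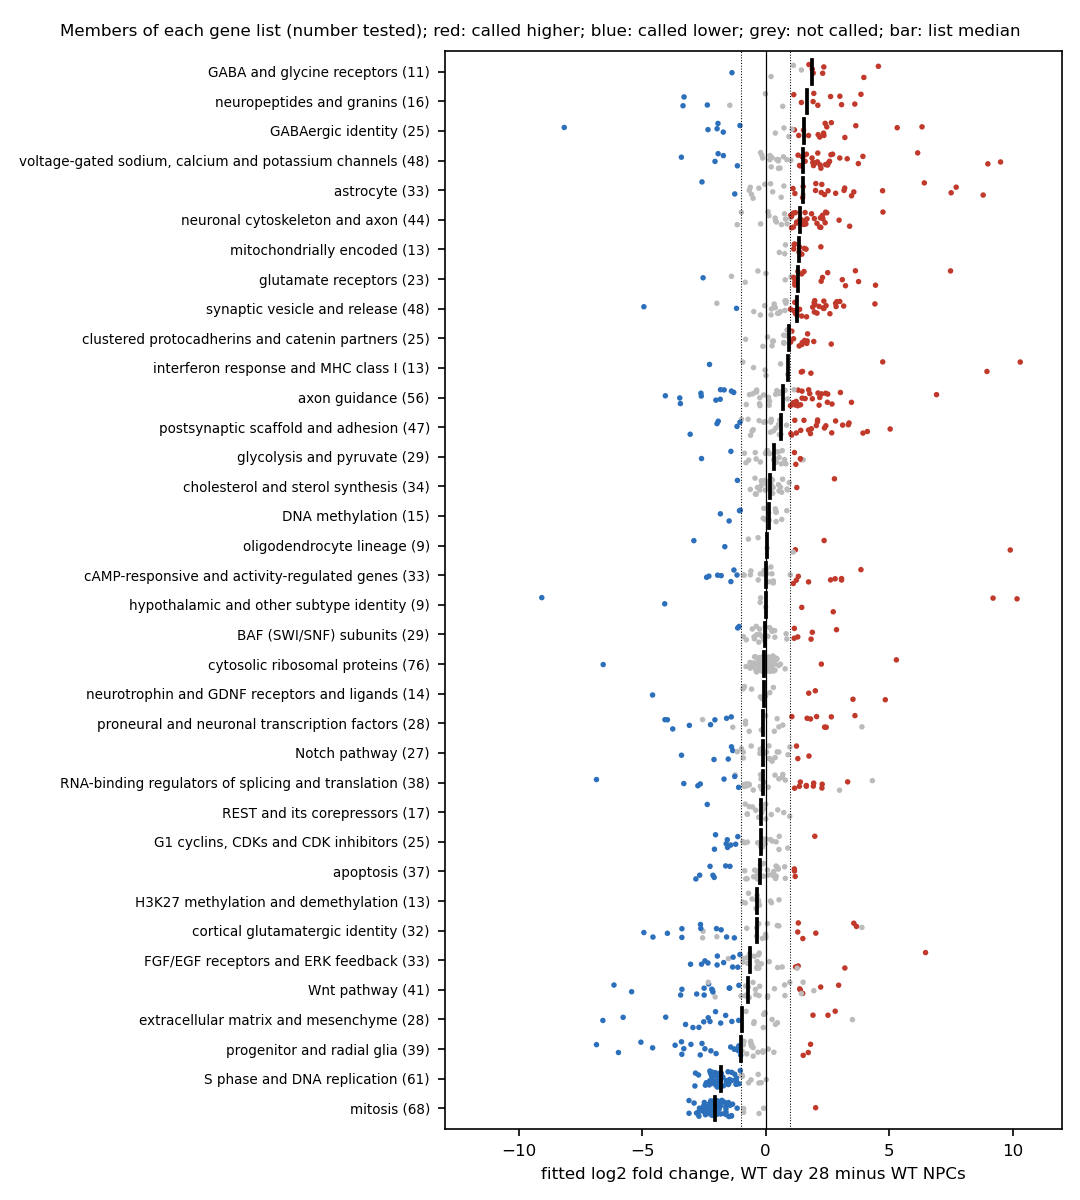
Fitted log2 fold change (horizontal axis, WT-D28 minus WT NPCs) of every tested member of 36 gene lists, in rows ordered by the list median (black bar); red points were called higher, blue lower and grey neither. The mitosis and S phase rows lie almost wholly left of 0, the receptor, channel, synaptic, cytoskeletal and astrocyte rows mostly right of it, and the ribosomal protein row is packed around 0.

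Genes of ventral forebrain identity were mostly higher. Of 25 GABAergic identity genes, 15 were higher and 6 were lower (median log2 fold change 1.54). The ventral patterning factor NKX2-1 (ENSG00000136352, hg38 chromosome 14, 36516392.0 to 36521149.0) was already present in the NPCs and rose, with 66.9 and 70.5 CPM in WT NPCs and 354 and 348 CPM in WT-D28 (log2 fold change 2.35, SE 0.19, adjusted p = 1.22e-07). Its downstream factor in cortical interneurons, LHX6, had 0 and 1 counts in the NPCs and 340 and 403 at day 28, a ratio of 85.7 (counting interval 15.3 to 3390), and LHX8, a factor of ventral and cholinergic neurons, went from 3.86 and 2.20 to 111 and 118 CPM (log2 fold change 5.33). DLX1, DLX2, DLX5 and DLX6 rose with log2 fold changes of 2.41, 1.34, 1.16 and 1.54. The GABA-synthesising enzymes GAD1 and GAD2 went from 20.6 and 9.55 to 176 and 171 CPM and from 20.6 and 22.8 to 96.5 and 95.3 CPM (log2 fold changes 3.65 and 2.13). DLX5 was at 0.98 and no longer called without NPC sample 1. SP8, a factor of another interneuron class and of early forebrain patterning, went the other way, with 93.9 and 107 CPM in WT NPCs and 0.591 and 0.0991 CPM in WT-D28 (log2 fold change -8.15).

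Genes of the glutamatergic cortical lineage were mixed. Of 32 such genes, 11 were lower and 6 were higher (median -0.36). TBR1, of early cortical neurons, had 6.43 and 3.67 CPM in WT NPCs and 0.118 and 0.397 CPM in WT-D28 (log2 fold change -3.98, adjusted p = 0.000742). The proneural factor NEUROG2 had 3 counts over both NPC samples and 1 count at day 28. NEUROD6 had 0 counts in all 4 samples, and NEUROD2 had 0 in the NPCs and 0.473 and 0.397 CPM at day 28. RELN (reelin) went from 238 and 201 to 10.1 and 8.43 CPM (log2 fold change -4.56), and the upper-layer factor CUX2 had a log2 fold change of -1.99. Of the higher members, 3 were NFIA, NFIB and NFIX, with log2 fold changes of 3.57, 2.03 and 3.68, which also act in gliogenesis. In the WT NPCs of passage 4, NEUROD6 had 359 and 374 CPM, TBR1 242 and 264 CPM and NEUROG2 160 and 150 CPM, while NKX2-1 had 23.0 and 21.8 CPM and LHX6 0 and 1.01 CPM.

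Some eye-field genes fell to 0 counts. ALDH1A3, a retinoic acid-synthesising enzyme of the ventral eye (ENSG00000184254, hg38 chromosome 15, 100877714.0 to 100916626.0), had 157 and 215 counts in the NPCs and 0 in both WT-D28 samples, at least 1075-fold lower with the floor of 3 counts over the group; its antisense neighbour ALDH1A3-AS1 showed the same pattern, and without strand information reads of the pair cannot be told apart. SIX6, of the eye field, had 27 and 32 counts against 0 and 0, at least 170.5-fold lower. RPE65 of the retinal pigment epithelium did the opposite, with 1 and 2 counts in the NPCs and 251 and 294 at day 28 (ratio 20.96, counting interval 7.13 to 102), so the list of 9 retina markers held 3 lower genes and 1 higher. Among 9 hypothalamic and other subtype genes, 4 were higher and 2 were lower. HMX2 and HMX3, factors of the hypothalamus and inner ear, had 0 counts in both NPC samples and 160 and 179 and 315 and 349 counts at day 28 (at least 13.03-fold and 25.5-fold higher). HMX2 was not called by DESeq2 (adjusted p = 0.325). TH, the dopamine-synthesising enzyme, went from 11.6 and 5.14 to 21.5 and 20.6 CPM (log2 fold change 1.46, 0.86 and no longer called without NPC sample 2).

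**Figure D4:**
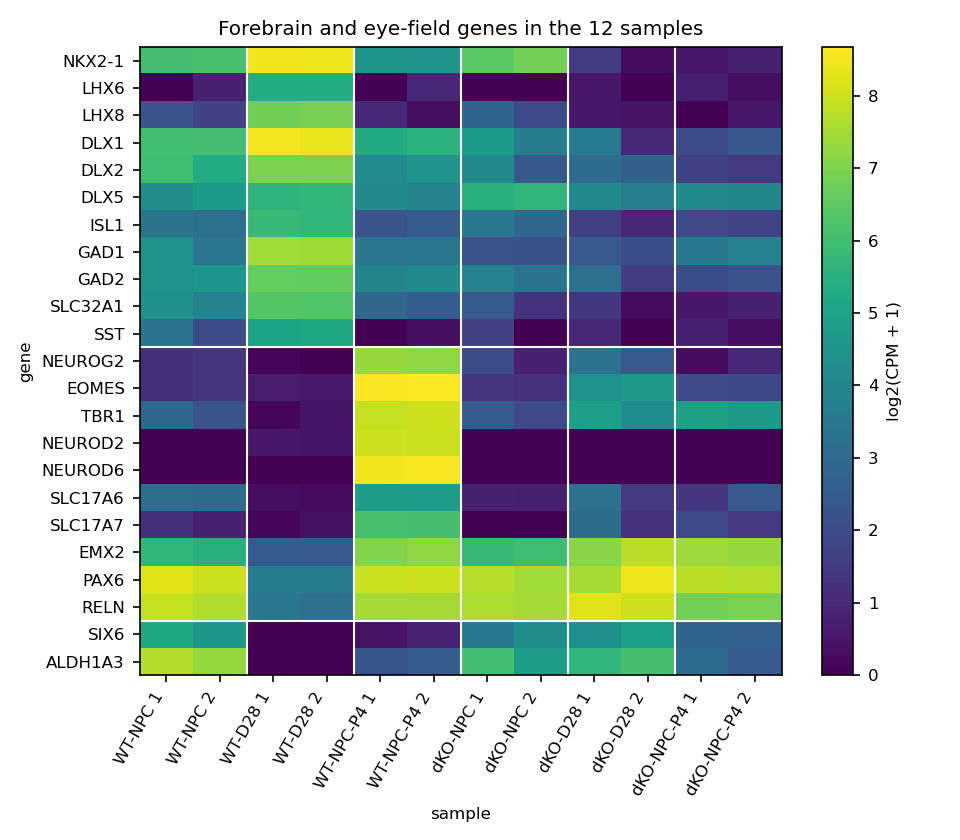
Heat map of log2(CPM + 1) for 23 genes (rows) in the 12 samples (columns, 2 per group): ventral and GABAergic genes on top, dorsal and glutamatergic genes in the middle and eye-field genes at the bottom. The WT-D28 columns are brightest for NKX2-1, LHX6, LHX8, DLX1 and GAD1 and dark for NEUROD6, TBR1 and ALDH1A3, whereas the passage 4 WT NPC columns are bright for EOMES, TBR1, NEUROD2 and NEUROD6.

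Among 28 proneural and neuronal transcription factors, 8 rose and 8 fell (median -0.09). These are 28.6% each way, against 12.9% higher and 11.5% lower of all genes tested. The rises were led by MYT1L, which sustains neuronal identity, from 3.86 and 5.14 to 57.4 and 57.8 CPM (log2 fold change 3.62), ISL1, from 9.003 and 8.08 to 55.6 and 51.4 CPM (log2 fold change 2.66), and SCRT1, from 9.003 and 12.5 to 60.8 and 56.3 CPM (log2 fold change 2.39). The falls included EBF3, LHX5 and NHLH1 of early dorsal neurons, with log2 fold changes of -3.09, -2.23 and -2.05, all below 10 CPM in the NPCs, and the progenitor factors POU3F2 and POU3F3, with -1.58 and -1.39. They also included NEUROG1 (0 and 4 counts in the NPCs, 1 and 1 in WT-D28) and NEUROG2 (1 and 2, then 1 and 0), which rest on few counts. Without NPC sample 2 the log2 fold change of NEUROG1 was 2.23.

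Astrocyte genes mostly rose as well: 20 of 33 were higher and 2 were lower (median log2 fold change 1.52). Of the 33, 25 had a positive and 8 a negative log2 fold change. GLUL went from 382 and 347 to 234 and 239 CPM, and GJA1 from 139 and 214 to 118 and 110 CPM. Their log2 fold changes of -0.62 (SE 0.10) and -0.66 (SE 0.51) were not called. SPARCL1 (hevin, secreted by astrocytes and also made by neurons) had 6.43 and 8.81 CPM in WT NPCs and 669 and 699.7 CPM in WT-D28 (log2 fold change 6.43, SE 0.41, adjusted p = 1.5e-06). BCAN (brevican, a matrix proteoglycan) had 1 count in each NPC sample and 1544 and 1719 counts at day 28, a ratio of 188 (counting interval 52.1 to 1555). The glutamate transporters SLC1A2 and SLC1A3 went from 27.01 and 18.4 to 117 and 110 CPM and from 104 and 81.5 to 261 and 263 CPM (log2 fold changes 2.39 and 1.52). Markers of mature astrocytes stayed at low levels: GFAP had 2.57 and 2.94 CPM in WT NPCs and 14.7 and 17.9 CPM in WT-D28 (log2 fold change 2.53), the water channel AQP4 had 13.4 and 13.1 CPM at day 28 and 1 count over both NPC samples, S100B had 6.74 and 6.25 CPM, and ALDH1L1 had 0.710 and 0.892 CPM. The oligodendrocyte lineage was scarcely present, with 3 of 9 tested genes higher and 2 lower, SOX10 at 8 and 4 counts in WT-D28 and MOG and MAG at 0. In bulk RNA, fewer cells of a type and less RNA per cell cannot be told apart, which holds for every list described here.

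Of 33 FGF and EGF receptor and ERK feedback genes, 11 were lower and 4 were higher (median log2 fold change -0.65). The ERK-induced factors ETV4 and ETV5 went from 41.2 and 43.3 to 5.68 and 4.66 CPM and from 92.6 and 87.4 to 15.5 and 14.2 CPM (log2 fold changes -3.04 and -2.59), and the feedback inhibitors SPRY1 and SPRY2 had log2 fold changes of -1.70 and -1.33. FGFR1 went from 527 and 493 to 254 and 242 CPM (log2 fold change -1.04, and -0.99 and not called without NPC sample 1). FGF14, a partner of sodium channels that is not secreted, had 3 counts over both NPC samples and 1077 and 1287 at day 28, a ratio of 90.9 (counting interval 31.1 to 441). Of 14 neurotrophin and GDNF receptors and ligands, 4 were higher and 1 was lower (28.6% and 7.14%, against 12.9% and 11.5% of all genes tested). NGFR of the same list missed the count filter and was not tested. It had 30.9 and 24.2 CPM in WT NPCs and 0.710 and 1.39 CPM in WT-D28. The neurotrophin receptor NTRK3 went from 12.9 and 17.6 to 52.6 and 53.5 CPM (log2 fold change 1.75), while the BDNF receptor NTRK2 had 55.3 and 60.2 CPM in WT NPCs and 51.9 and 48.8 CPM in WT-D28 and the GDNF receptor RET 7.72 and 3.67 CPM in WT NPCs and 4.73 and 5.65 CPM in WT-D28, neither called.

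The medium at day 28 contained cAMP, and its part in the following values was not tested. The 33 cAMP-responsive and activity-regulated genes did not move together: 9 were higher, 7 were lower and the median was 0.03. ARC, an immediate early gene of synapses, had 18.01 and 17.6 CPM in WT NPCs and 149.5 and 150.4 CPM in WT-D28 (log2 fold change 3.07, SE 0.80, adjusted p = 0.0182). FOSB and ATF3 were lower, with log2 fold changes of -1.94 and -1.40, and FOS and EGR1 were not called, with 0.25 and 0.15. The cAMP response element (CRE, TGACGTCA) was present in 4 of 29 promoter windows of this list (13.8%), against 3.42% of tested genes. Among the 13 windows of called members it was present in 2 (15.4%), near the share of the whole list. PCSK1, a prohormone convertase (from 2.57 and 8.81 to 54.6 and 54.9 CPM), and SST, which both rose, are the called members with a CRE within the 150 bases before the start. Their windows are shown with the CRE in capitals (chr5:96433249-96433398 and chr3:187670395-187670544, minus strand).
PCSK1: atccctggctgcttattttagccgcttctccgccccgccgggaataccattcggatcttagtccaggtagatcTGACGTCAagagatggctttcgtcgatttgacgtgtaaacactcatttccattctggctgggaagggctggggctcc
SST: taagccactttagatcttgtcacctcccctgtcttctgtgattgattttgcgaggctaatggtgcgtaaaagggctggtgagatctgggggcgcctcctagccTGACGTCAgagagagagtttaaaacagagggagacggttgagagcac

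In the Wnt list, 14 of 41 genes were lower and 5 were higher (median -0.70). The secreted antagonists SFRP1 and SFRP2 of neural progenitors went from 821 and 659 to 19.04 and 15.4 CPM and from 372 and 352 to 5.91 and 4.36 CPM (log2 fold changes -5.42 and -6.14), and the receptor FZD7 and nuclear factor LEF1 had log2 fold changes of -2.49 and -2.13. In the Notch list, 5 of 27 were lower and 3 were higher (18.5% and 11.1%, against 11.5% and 12.9% of all genes tested). DLK1, a non-canonical ligand that is also imprinted, went from 1228 and 1618 to 132 and 137 CPM (log2 fold change -3.41), JAG1 and NOTCH3 had -1.38 and -1.33, and the neuronal ligand DNER rose by 1.76 on the log2 scale. The axon guidance list was mixed, with 25 of 56 higher and 11 lower (median 0.70). SLIT1, a repellent ligand, went from 79.7 and 60.95 to 566 and 557 CPM (log2 fold change 3.03) and the semaphorin receptor PLXNA4 went from 20.6 and 16.2 to 207 and 191 CPM (log2 fold change 3.48), whereas the ephrin receptors EPHA3 and EPHA7 had log2 fold changes of -3.45 and -4.06. Clustered protocadherins, which give neurons their surface identity, were higher in 12 of 25 and lower in none (median 0.95; 0 lower in edgeR and DESeq2, and 1 at an unadjusted p below 0.05), although the exons they share make the counts of single members uncertain.

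Among 29 BAF (SWI/SNF) subunits, 6 were higher and 2 were lower (median -0.01), a share near that of all genes tested (24.4% called). The neuronal subunit ACTL6B (BAF53B) went from 9.003 and 8.81 to 65.4 and 65.02 CPM (log2 fold change 2.87), SS18L1 (CREST) went from 60.5 and 69.03 to 143 and 151 CPM (1.16) and the ATPase SMARCA2 went from 25.7 and 21.3 to 86.1 and 84.95 CPM (1.89), while SMARCC1 of progenitor complexes went from 503 and 487 to 231 and 239 CPM (-1.07). Of 13 genes that write or erase H3K27 methylation none was called in either direction by edgeR or DESeq2, and 7 had an unadjusted p below 0.05 in edgeR; without NPC sample 2 there were 2 called lower. EZH2, the methyltransferase of PRC2, came nearest, with 144 and 145 CPM in WT NPCs and 74.97 and 77.5 CPM in WT-D28 (log2 fold change -0.92, SE 0.12). The demethylases had 60.5 and 53.6 CPM in WT NPCs and 43.6 and 48.3 CPM in WT-D28 for KDM6A and 154 and 181 CPM in WT NPCs and 202 and 186 CPM in WT-D28 for KDM6B, log2 fold changes of -0.30 (SE 0.24) and 0.19 (SE 0.11). Of 15 DNA methylation genes 4 were lower: UHRF1 (-1.83), DNMT3B (-1.48), TET1 (-1.06) and DNMT1 (-1.02), the last pair just past the threshold. DNMT1 lost its call without NPC sample 1 (-0.90) and TET1 without WT-D28 sample 2 (-0.96).

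Matrix genes were reduced, with 14 of 28 lower and 3 higher (median -0.94). COL2A1, a fibrillar collagen also made by neuroepithelium, had 675 and 734 CPM in WT NPCs and 6.39 and 8.13 CPM in WT-D28 (log2 fold change -6.59, SE 0.16, adjusted p = 9.63e-14), and FN1 (fibronectin) went from 522 and 812 to 121 and 116 CPM (log2 fold change -2.50). COL1A1 differed between the NPC samples, with 97.8 and 261 CPM in WT NPCs and 19.5 and 20.02 CPM in WT-D28 (log2 fold change -3.24, SE 0.49), as did the summed fibroblast markers given above. The dKO cells showed a median of -0.97 over the same list. By the interaction test 5 of its members had a more positive and 5 a more negative change in WT. PDGFRB and COL3A1, pericyte and fibroblast genes, rose, with 7.72 and 16.9 CPM in WT NPCs and 91.5 and 97.5 CPM in WT-D28 and 1.29 and 13.95 CPM in WT NPCs and 51.4 and 54.8 CPM in WT-D28. Of 37 apoptosis genes, 7 were lower and 3 were higher (18.9% and 8.11%, against 11.5% and 12.9% of all genes tested). The survival factor BCL2L1 went from 107 and 118 to 248 and 258 CPM (log2 fold change 1.16).

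Of 76 cytosolic ribosomal protein genes 2 were higher and 1 was lower (median -0.05). The higher genes, RPL21 and RPS26, have near-identical copies elsewhere in the genome and are uncertain. The count of lower genes was 0 when NPC sample 2 or either WT-D28 sample was left out and 2 without NPC sample 1. Cholesterol synthesis had 2 higher and 1 lower of 34, and glycolysis 4 higher and 2 lower of 29, the last near the share of all genes (12.9% and 11.5%). Of the 13 mitochondrially encoded genes 10 were higher (median 1.36), but 0 were called with the correction for GC content and length (median 0.32). MT-CO1, a subunit of cytochrome c oxidase, had 2993 and 2912 CPM in WT NPCs and 11570 and 16260 CPM in WT-D28 (log2 fold change 2.24). The same list had a median of 1.37 in dKO cells, with 11 of 13 higher, and 0 of its members passed the interaction test of edgeR between the genotypes (0 at an unadjusted p below 0.05). Under that correction MT-CO1 had a log2 fold change of 0.68, and MT-ND4 and MT-CYB turned to -0.17 and -0.23. Of 13 interferon and MHC class I genes, 6 were higher and 1 was lower. IFI44 had 0 counts in both NPC samples and 330 and 401 at day 28 (at least 28.1-fold higher), and B2M, the light chain of MHC class I, went from 1.29 and 2.94 to 6.98 and 6.25 CPM (log2 fold change 1.49, and 1.16 with an adjusted p of 0.156 in edgeR without NPC sample 1).

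Among protein-coding genes with at least 10 counts in the lower group, the 10 largest rises were SPARCL1, RPL21, NSG2, a neuronal endosomal protein (from 25.7 and 25.7 to 647 and 647 CPM), GABBR2, GRIA2, the giant adhesion receptor ADGRV1 (from 43.7 and 41.1 to 836 and 804 CPM), IQSEC3 of inhibitory synapses (from 7.72 and 2.94 to 86.3 and 78.7 CPM), the kinase STK32A, the cannabinoid receptor CNR1 (from 25.7 and 15.4 to 316 and 324 CPM) and SPOCK2. The 10 largest falls were LIN28A, COL2A1, SFRP2, the desmosomal protein DSP (from 63.02 and 109 to 0.710 and 1.69 CPM), POU3F4 (from 66.9 and 47.7 to 0.710 and 0.892 CPM), HMGA2, the transglutaminase TGM2, the zinc finger factor SALL4 (from 151 and 128 to 2.01 and 2.48 CPM), TGFBI and the secreted protein SCUBE1 (from 453 and 493 to 8.51 and 10.51 CPM). TGM2 and TGFBI were uneven between the NPC samples, at 16.7 and 77.1 CPM and at 27.01 and 63.9 CPM. By absolute level, the largest gains outside the mitochondrial genome were the imprinted genes NNAT (from 432 and 429 to 4388 and 4433 CPM) and PEG10 (from 948 and 881 to 4333 and 4334 CPM) and DPYSL3. The largest losses past the threshold were DLK1, the histone chaperone NAP1L1 (from 1329 and 1282 to 446 and 474 CPM), SFRP1, COL2A1 and the poly(A)-binding protein PABPC1 (from 1154 and 1065 to 419.8 and 423 CPM), while EEF1A1, VIM and FLNA had large differences in mean CPM and were not called. Further genes with 0 counts in both NPC samples were TNR (249 and 302 counts at day 28), the myosin MYH7 (175 and 212), C22orf42 (141 and 192) and the tachykinin TAC3 (151 and 165), at least 21.2-, 14.9-, 12.8- and 12.2-fold higher. Those with 0 counts in WT-D28 included F13A1 (32 and 45 counts in the NPCs, at least 222.5-fold lower), L1TD1 (3 and 10), ICAM4-AS1 (2 and 5), PAX7 (0 and 4) and COL17A1 (0 and 2), the last 2 resting on NPC sample 2 alone.

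The same step in dKO cells gave far fewer calls. From dKO NPCs to dKO-D28, 540 genes (4.01%) were higher and 422 (3.14%) lower by the same rule. The 2 dKO-D28 samples differed for some genes, such as STMN2 with 213 and 103 CPM and SFRP2 with 247 and 841 CPM. For others, such as NES with 611 and 608 CPM, they were close. The part of this spread in the number of calls was not tested. Of the 1737 genes higher in WT, 178 (10.2%) were also higher in dKO cells and 86 were lower; of the 1544 lower in WT, 188 (12.2%) were also lower and 83 were higher. The difference of the WT and dKO changes, tested as an interaction on samples that are not shared, was called positive for 1500 genes (11.1%) and negative for 1619 (12%), or 23.2% in all. In the mitosis list 63 of 68 and in the S phase list 49 of 61 members had a more negative change in WT, and the dKO medians of these lists were -0.16 and -0.07. MKI67 had 510 and 477 CPM in dKO NPCs and 408 and 558 CPM in dKO-D28. In the cytoskeleton list 32 of 44 members had a more positive change in WT (dKO median -0.34), in the synaptic vesicle list 25 of 48 (dKO median 0.02) and in the GABAergic list 13 of 25 (dKO median -0.80). For NKX2-1 the genotypes moved in opposite directions, since dKO NPCs had 87.3 and 116 CPM and dKO-D28 1.91 and 0.19 CPM (difference of log2 fold changes 9.03, SE 0.38, edgeR adjusted p = 2.11e-10). The Wnt list had opposite medians too, -0.70 in WT and 0.57 in dKO, with 19 of 41 members more negative in WT. WT NPCs of passage 4, set against the same WT NPCs, showed several of the WT list changes too. There 28 of 44 cytoskeleton, 14 of 23 glutamate receptor and 20 of 33 astrocyte genes were higher (medians 1.23, 1.87 and 2.22). In the mitosis list 3 of 68 were lower (median -0.41), and in the GABAergic list 5 of 25 were higher and 7 lower. Both comparisons share the 2 shallow NPC libraries, and the part of this was not tested.

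**Figure D5:**
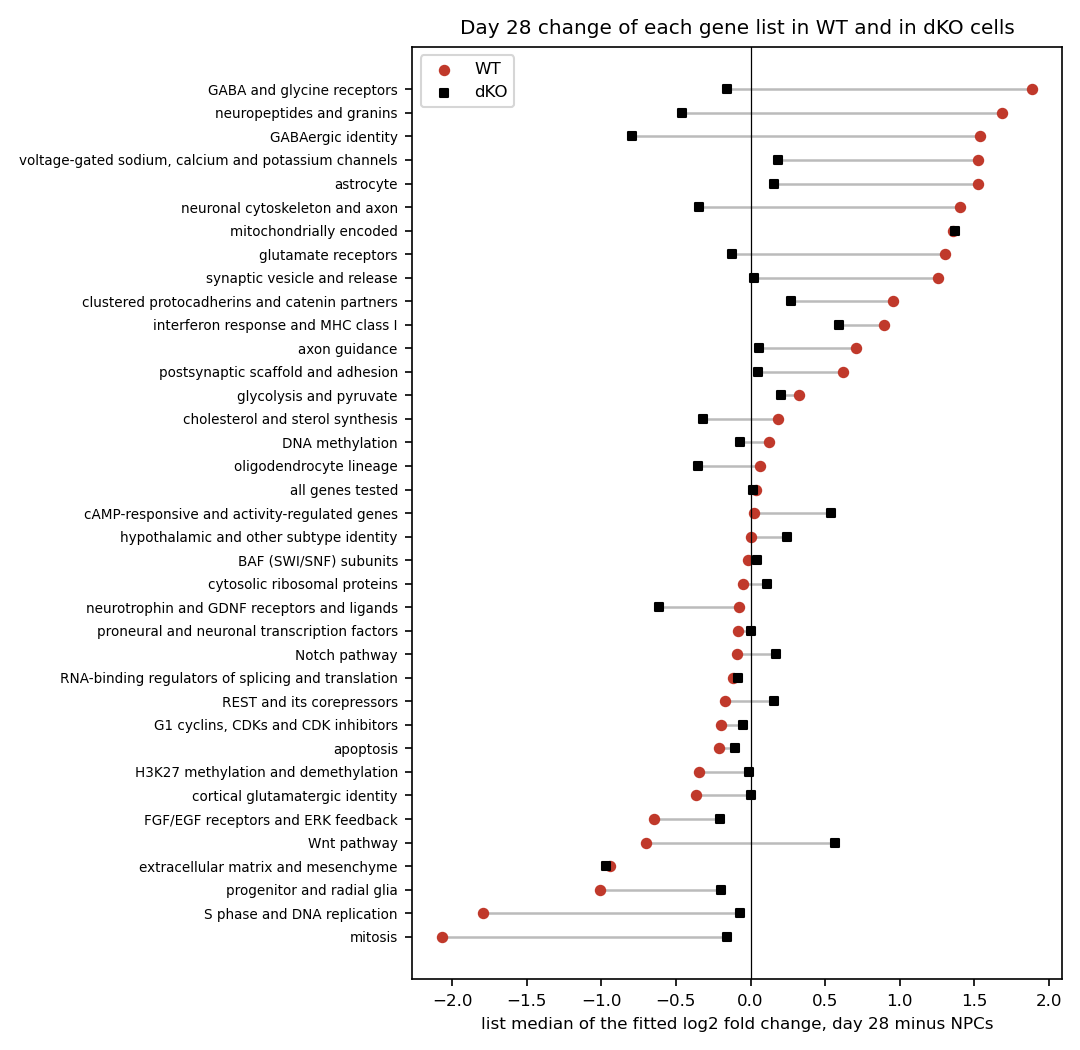
Median fitted log2 fold change from NPCs to day 28 (horizontal axis) over each gene list (rows) in WT (red circles) and dKO cells (black squares), joined by a grey line. The squares lie near 0 for the mitosis, S phase, synaptic and receptor lists. They lie on the other side of 0 for several lists, among them the GABAergic, Wnt, neuropeptide and cytoskeleton lists. For mitochondrially encoded genes and matrix genes they lie on top of the circles, although single matrix genes such as COL2A1 differed (-6.59 in WT, -0.19 in dKO).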

How the data were processed

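Total RNA was extracted with TRIzol and sequenced from TruSeq RNA libraries whose strandedness is not given in the sources used here. Per the labels and the study's methods, the authors aligned reads to hg38 with HISAT2 2.0.4, used SAMtools 1.3.1 and counted reads per gene with HTSeq 0.6.0. The deposited values are raw counts for 58302 Ensembl genes; the annotation release is not given in the sources used here. The later filtering and DESeq 1.18.1 steps of the authors are not part of these counts.

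Identifiers were matched to GENCODE release 44 (57532 identifiers, 99.79% of counts) for symbols, coordinates, GC content and length. Genes averaging 20 or more counts across the 12 samples entered edgeR 4.0.16 (R 4.3.3; TMM scaling, quasi-likelihood F-test with robust estimation), with 6 group means in a fit of all 12 samples, and adjusted p-values are Benjamini-Hochberg values over all 13454 genes. A gene was called at p below 0.05 and a fold above 2. Standard errors are the absolute log2 fold change divided by the square root of F. Fits were tested on simulated data. DESeq2 1.42.0 was an alternative, with other scalings, filters, a GC content and length correction, a replicate block and each replicate left out. For genes with 0 counts in a group, folds are bounds against 3 counts over the group, and with 1 to 3 counts they are count ratios with exact counting intervals. Intervals and floors cover counting error only. P-values measure the spread between these samples, which may be technical.

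The groups, gene lists and motifs were chosen with earlier results of these data known. Genes named are the key genes of each list, the 10 largest rises and falls among protein-coding genes with at least 10 counts in the lower group, the 8 most abundant genes in each direction with 0 counts in the lower group, the 8 largest differences in CPM in each direction, and KDM6A and KDM6B. A further 43 genes were named after their values were seen, and some genes are not reported here. Promoters are from RefSeq (GRCh38.p14).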

Additional observations from a re-analysis of the deposited data

Results flagged for a closer look

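The day 28 change differed between WT and dKO cells by the interaction test of edgeR for 1500 genes with a more positive and 1619 genes with a more negative change in WT, where fold differences above 2 at an unadjusted p below 0.05 were counted. Each genotype contributed 2 samples per stage.

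Among the largest WT rises, the WT log2 change exceeded the dKO log2 change by 7.87 for SPARCL1, 4.67 for NSG2, 3.78 for GABBR2, 4.46 for GRIA2, 4.24 for ADGRV1, 4.33 for IQSEC3 and 4.82 for CNR1. Among the largest WT falls, the difference was -6.30 for LIN28A, -6.40 for COL2A1, -7.46 for SFRP2, -7.43 for DSP, -5.63 for HMGA2, -5.57 for SALL4, -4.13 for TGFBI and -5.03 for SCUBE1. Early NPC libraries of both genotypes were shallow, and the part of depth in these differences was not tested.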

How the results depend on the processing

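The counts of 1737 higher and 1544 lower genes stayed within 1.5 times under DESeq2 (1612 and 1595), upper-quartile scaling, the adjusted p, a test against a fold of 1.5, the 4 samples alone, a mean of at least 5 CPM, and the GC content and length correction. Testing every gene with at least 1 count in any sample gave 2873 and 2736, since 34982 genes were then tested. Requiring at least 10 counts in every sample gave 833 higher and 1076 lower genes, 43.6% higher instead of 52.9%, over 9967 genes. Leaving out each replicate gave 1665 to 1736 higher and 1515 to 1550 lower genes, and 2667 of the 3281 calls were kept without NPC sample 2, against 2910 without NPC sample 1. Samples with the same number did not deviate together (correlation -0.02), so the numbers are not shown to pair them, and a replicate block gave 1737 and 1547 genes. The interaction counts of 1500 and 1619 were 1413 and 1577 with DESeq2 and 1498 and 1605 with the replicate block.

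Of 244 genes checked, 4 were reversed, and 14 others lost their call with the GC content and length correction. With the GC content and length correction, MT-ND4 went to -0.17 and MT-CYB to -0.23 (-0.18 and -0.23 with the replicate block as well). With each replicate left out, NEUROG1 ranged from -4.44 to 2.23 and CNTNAP2 from -3.80 to 0.11, both highest without NPC sample 2. With the GC content and length correction 0 of the 13 mitochondrially encoded genes were called, against 10 higher without it. The cause was not tested. In the WT NPCs, 3 counts correspond to 2.20 to 3.86 CPM, which limits the precision of genes near that level. A list median was counted as moved when it shifted by more than its SD over the 4 pairings of WT-D28 and NPC samples. Of the 36 list medians, 18 moved with the GC content and length correction, 18 without NPC sample 2 and 13 without NPC sample 1. Requiring at least 10 counts in every sample, which tests fewer genes, moved 22.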

Other observations

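Long non-coding RNAs moved upward more often than protein-coding genes, with 225 of 1092 (20.6%) higher and 7.42% lower, against 12.1% and 11.5% of 11825 protein-coding genes. Processed pseudogenes leaned the other way, with 29 higher and 70 lower of 230 in WT and 26 higher and 52 lower in dKO cells. Protein-coding genes that span over 200 kb were called more often in both directions, 21.5% higher and 16.8% lower of 1145, than those of 20 to 50 kb, at 9.74% and 11.2%. No test was run on these shares, and reads of pseudogenes and their parent genes can be split by the counting.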
